A study of Caenorhabditis elegans with 6 samples.

Results

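The genes described here are 31 genes of synaptic transmission in *Caenorhabditis elegans*: the vesicle fusion machinery, the neuropeptide processing enzymes, the calcium channels and gap junction proteins of neurons, and the enzymes and transporters that define a neuron's transmitter. They were taken by name from the deposited gene tables, and all 31 were found among 47157 gene IDs. The series compared whole young adults of the wild-type strain N2 with young adults of the strain *blmp-1(s71)*, in 3 libraries each. The labels give no other allele, no drug and no age in hours, and they do not say what the s71 lesion is. Animals of both strains came from bleached embryos and synchronized first-stage larvae raised on agar plates. The design text calls the libraries biological replicates and does not say how many animals went into one. The zinc finger transcription factor gene *blmp-1* had its own transcript at 14.3, 9.89 and 12.3 scaled CPM in wild-type libraries 1 to 3 and at 22.1, 13 and 8.62 in mutant libraries 1 to 3, so the groups overlapped. Its log2 fold change was 0.16 (SE 0.32, limma adjusted p = 0.697), and the transcript level does not check the genotype.

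At a synapse, vesicles filled with transmitter dock at the active zone, are primed, and fuse with the plasma membrane when calcium enters through voltage-gated channels. Fusion is driven by a complex of a vesicle SNARE (synaptobrevin) with SNAREs of the plasma membrane (syntaxin and SNAP25), under the control of UNC-13, UNC-18, synaptotagmin and complexin. Neuropeptides travel in dense core vesicles instead, inside which their precursors are cut by a proprotein convertase, trimmed by a carboxypeptidase and then amidated. A neuron's transmitter is set by its synthetic enzyme and its vesicular transporter, which makes these genes markers of cholinergic, GABAergic, glutamatergic, serotonergic and dopaminergic cells.

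The reads on genes numbered 5255125, 13319362 and 15218178 in wild type and 6586154, 13711720 and 9893919 in the mutant, so both replicate-1 libraries were the shallowest of their group. Ribosomal RNA took 4.0% and 4.56% of their reads, where the remaining libraries had 0.841% to 1.28%. Levels are given as CPM, which scale the reads of a gene to the library's total, divided by a TMM factor that equalizes the bulk of genes between libraries. Fold changes are mutant over wild type on the log2(CPM + 1) scale, tested with limma over 13756 genes and called at a Benjamini-Hochberg adjusted p under 0.05. Each library is a whole-animal sample, in which more cells of a type and more RNA per cell cannot be told apart.

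Most of the synaptic genes stood higher in the *blmp-1(s71)* mutant, by less than 2-fold on the log2(CPM + 1) scale. The added 1 shrinks the fold changes of genes at low levels. For *unc-31*, edgeR and DESeq2 gave log2 fold changes of 1.06 and 1.03. Of the 31 genes, 29 passed the filter on low values, and *unc-47* and *tph-1* did not. limma called 6 of the 29 higher (20.7%), against 8.84% of all 13756 tested genes called higher, and it called 0 lower, against 13.4% of all tested genes. edgeR and DESeq2 also called 0 lower, against 9.49% and 15.4% of all tested genes. An unadjusted p under 0.05 was found in 17 of the 29, against 44.8% of all tested genes in either direction. The 6 were *snt-4*, *egl-3*, *egl-21*, *sbt-1*, *ida-1* and *unc-9*. The log2 fold change was above 0 for 26 of the 29, against 53.1% of all tested genes, and the median over the 29 was 0.62, against 0.07 over all tested genes. In 17 of the 29 (58.6%) every mutant library lay above every wild-type library, which held for 22.6% of all tested genes. In 1 of the 29, *unc-11*, every mutant library lay below every wild-type library (3.45%, against 26% of all tested genes). The summed level of the 31 genes ran from 699 to 814 scaled CPM in wild type and from 909 to 1134 in the mutant.

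**Figure D1:**
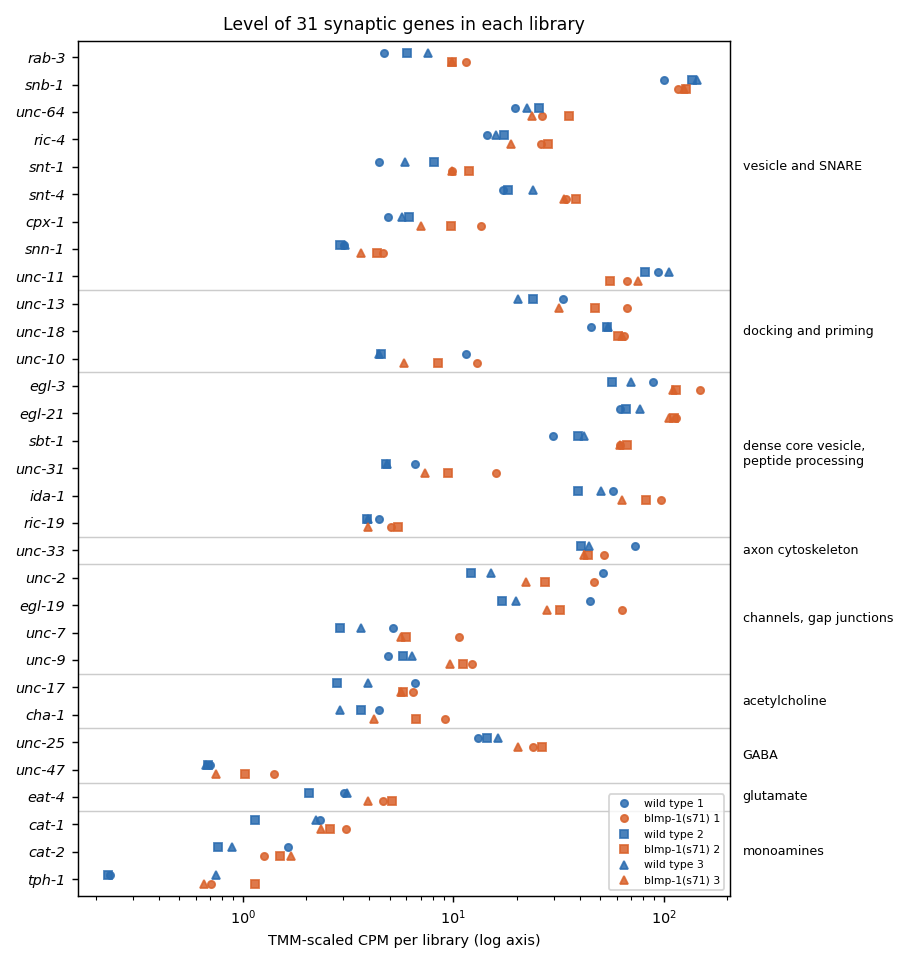
TMM-scaled CPM (log axis) of the 31 genes in each of the 3 wild-type libraries (blue) and 3 *blmp-1(s71)* libraries (orange), 1 point per library, grouped by role. For 17 of the 29 tested genes all orange points lie to the right of all blue points, and for *unc-11* they lie to the left.

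Which libraries are compared matters for the calls. In 25 of the 29 genes mutant library 3 was the lowest of the mutant libraries, and in 18 mutant library 1 was the highest. On the log2 scale, with the wild-type mean of each gene at 0, the average of the 29 genes was 0.70, 0.52 and 0.31 in mutant libraries 1, 2 and 3 and 0.14, -0.13 and -0.01 in those of wild type. With mutant library 3 left out, limma called 12 of the genes higher, against 13.9% of all tested genes, and 1 lower, *unc-11*, against 21.8%. With any 1 of the other 5 libraries left out it called 0 of them, although all 6 genes kept a positive log2 fold change, between 0.51 and 1.05, with adjusted p from 0.0504 to 0.223. Those 5 fits called between 34 and 275 genes in all, against 3061 with every library in. The share of all tested genes called higher was 1.76%, 1.12% and 1.55% without wild-type library 1, 2 or 3, and 0.211% and 0.189% without mutant library 1 or 2.

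**Figure D2:**
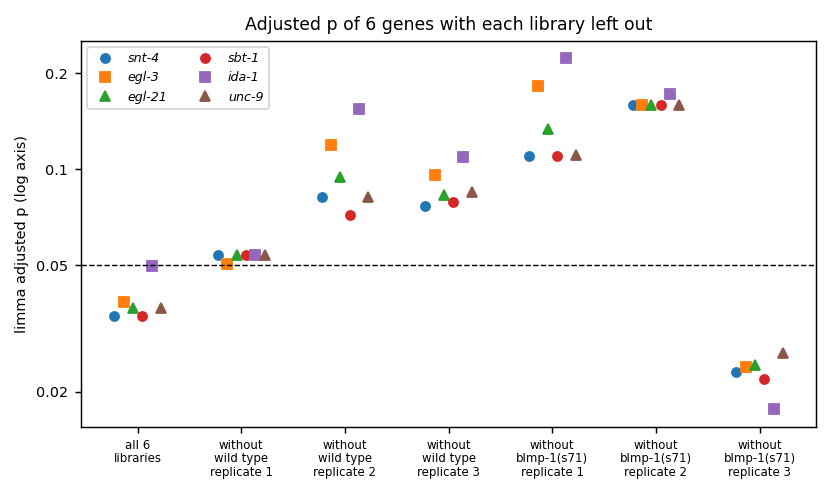
limma adjusted p (log axis) of the 6 called genes with all 6 libraries and with each library left out in turn; the dashed line is the threshold of 0.05. The 6 genes lie under the line with all libraries and without mutant library 3 (0.0176 to 0.0264), and above it in the other 5 fits.

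Neuropeptide processing and dense core vesicle genes held the most calls, 4 of 6. *egl-3* encodes the proprotein convertase of the PC2 type that makes the first cuts in neuropeptide precursors. It was at 89.2, 56.8 and 70.1 scaled CPM in wild-type libraries 1 to 3 and at 149, 114 and 111 in mutant libraries 1 to 3. Every mutant library lay above every wild-type library, with means of 72.0 ± 16.3 and 125 ± 21.1 (SD, n = 3), and *egl-3* rose by 0.79 on the log2 scale (SE 0.24, limma adjusted p = 0.0384). *sbt-1* encodes the chaperone that this convertase needs to mature. It was at 29.7, 39 and 41.9 scaled CPM in wild type and at 62.0, 67.3 and 61.7 in the mutant, 3 nearly equal mutant libraries well clear of wild type, and it rose by 0.79 (SE 0.21, limma adjusted p = 0.0346). *egl-21*, the carboxypeptidase E that removes basic residues after the cut, was at 62.3, 66.3 and 76.9 scaled CPM in wild type and 115, 112.6 and 106 in the mutant. Its mutant libraries were close together, at 111 ± 4.42 (SD, n = 3), and rose by 0.70 (SE 0.20, limma adjusted p = 0.0368).

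*ida-1* encodes an IA-2 type protein of the dense core vesicle membrane. It was at 57.3, 39.3 and 50.1 scaled CPM in wild type and at 96.7, 82.3 and 63.3 in the mutant, with mutant library 3 only a little above wild-type library 1. It rose by 0.71 (SE 0.24) with a limma adjusted p of 0.0497, and edgeR and DESeq2 on the reads recovered from the CPM gave adjusted p of 0.0531 and 0.0575. *unc-31*, the CAPS protein that primes dense core vesicles, did not pass: it was at 6.55, 4.79 and 4.84 scaled CPM in wild type and 16, 9.46 and 7.31 in the mutant. Its groups did not overlap and its log2 fold change was 0.84 (SE 0.30, limma adjusted p = 0.0563), but the mutant libraries were spread over more than a doubling of the level. *ric-19*, related to the islet autoantigen ICA69, was at 3.88 to 4.45 scaled CPM in wild type and 3.93 to 5.48 in the mutant, with overlapping groups and a log2 fold change of 0.19.

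In WBcel235 coordinates, which may differ from the authors' build, *egl-3* lies on chromosome V from 10169177 to 10173753 and *sbt-1* on chromosome V from 20827715 to 20828881, both on the minus strand. *egl-21* lies on chromosome IV from 10478442 to 10481844 (minus strand), *ida-1* on chromosome III from 5755539 to 5765816 and *unc-9* on chromosome X from 13201770 to 13216729 (both plus strand), and *snt-4* on chromosome I from 6436112 to 6441192 (plus strand). All 6 are protein-coding, and 1 CPM value was deposited for each of them in every library. The only annotated exon overlap among the 6 is between *sbt-1* and the hedgehog-related gene *grl-14* on the other strand, over 29 bases or 3.67% of the *sbt-1* exons. *grl-14* had 8 to 47 reads per library against 127 to 1117 for *sbt-1*, and its log2 fold change was 0.55 (SE 0.39, limma adjusted p = 0.284).

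Among the 9 genes of the synaptic vesicle and its fusion machinery, 7 had positive log2 fold changes and 1 was called. *snt-4*, a member of the synaptotagmin family, was at 17.3, 18.3 and 24.0 scaled CPM in wild type and at 34.3, 38.4 and 33.4 in the mutant. The mutant libraries were close together and clear of wild type, and *snt-4* rose by 0.81 (SE 0.22, limma adjusted p = 0.0346). *snt-1*, the main calcium sensor for fast release, was at 4.45, 8.06 and 5.88 scaled CPM in wild type and 9.84, 11.9 and 9.84 in the mutant. Its log2 fold change of 0.72 (SE 0.27) was close to that of *snt-4* and its groups did not overlap, but it did not pass (limma adjusted p = 0.0633).

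The SNARE genes differed among themselves. *snb-1*, the synaptobrevin of the vesicle, was at 99.9, 136 and 144 scaled CPM in wild type and 117, 127 and 125 in the mutant, so the mutant libraries lay inside the wild-type range. Its log2 fold change was -0.03 (SE 0.22), and it was 0.30 with library size alone, 0.11 with upper-quartile scaling and 0.24 with TPM. *unc-64*, the syntaxin of the plasma membrane, was at 19.7, 25.6 and 22.4 scaled CPM in wild type and 26.6, 35.4 and 23.6 in the mutant. The syntaxin groups overlapped through mutant library 3, and the log2 fold change was 0.31 (SE 0.23, limma adjusted p = 0.303). *unc-64* shares 64 bases of exon with *set-25* on the other strand, which had 48 to 176 reads per library against 84 to 587 for *unc-64*. *ric-4*, the SNAP25 protein, was at 14.5, 17.4 and 16 scaled CPM in wild type and 26, 28.1 and 18.8 in the mutant. It did not overlap but did not pass (log2 fold change 0.56, SE 0.24, limma adjusted p = 0.0886).

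Of the other vesicle genes, *rab-3*, the small GTPase of synaptic vesicles, was at 4.68 to 7.59 scaled CPM in wild type and 9.84 to 11.5 in the mutant. Its log2 fold change of 0.70 had a limma adjusted p of 0.0597. *rab-3* shares 25 bases of exon with *damt-1* on the other strand, which had 31 to 209 reads per library against 20 to 164 for *rab-3*. *cpx-1*, a complexin that clamps and promotes fusion, was at 4.91 to 6.16 in wild type and 7.03 to 13.5 in the mutant (log2 fold change 0.71, limma adjusted p = 0.0719). *snn-1*, the synapsin, was at 2.89 to 3.05 in wild type and 3.65 to 4.64 in the mutant (log2 fold change 0.38, limma adjusted p = 0.239). In *rab-3*, *cpx-1* and *snn-1* every mutant library lay above every wild-type library, although none passed the test. *unc-11*, the clathrin adaptor of the AP180 type that retrieves synaptobrevin in endocytosis, was at 94.3, 81.7 and 106 scaled CPM in wild type and at 66.8, 55.4 and 75.5 in the mutant. It had the lowest log2 fold change of the 29 tested genes, -0.51 (SE 0.22, limma adjusted p = 0.0915), and was called lower when mutant library 3 was left out (limma adjusted p = 0.0498). That fit called 21.8% of all tested genes lower.

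**Figure D3:**
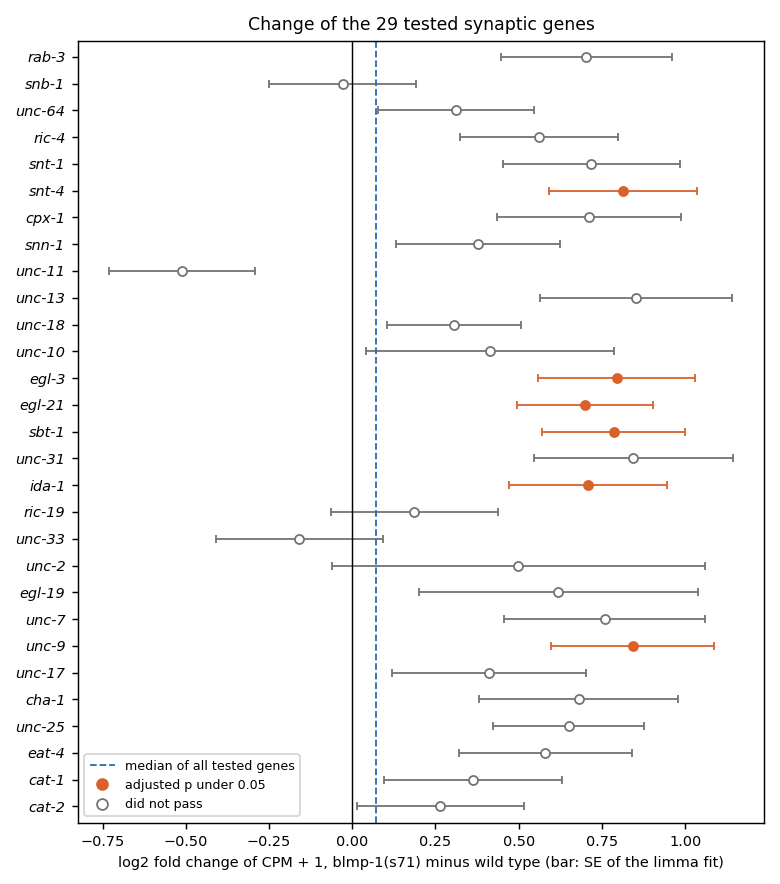
log2 fold change of CPM + 1 (mutant minus wild type) with the SE of the limma fit for the 29 tested genes; filled orange points have an adjusted p under 0.05, open grey points do not, and the dashed line is the median of all tested genes (0.07). 26 of the 29 points lie above 0, and *unc-11* is lowest at -0.51.

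None of the 3 docking and priming genes was called, though all 3 had positive log2 fold changes. *unc-13* makes vesicles ready to fuse. It was at 33.2, 24.0 and 20.4 scaled CPM in wild type and 66.9, 47.3 and 31.8 in the mutant, so the groups overlapped between wild-type library 1 and mutant library 3. Its log2 fold change of 0.85 (SE 0.29) was the highest of the 29 on this scale, with *unc-31* and *unc-9* at 0.84. With 0.5 instead of 1 added to the CPM, *unc-31* was above *unc-13*, at 0.90 against 0.86. *unc-13* lay just past the threshold (limma adjusted p = 0.0506), and DESeq2 gave an adjusted p of 0.0469 and edgeR 0.0563. *unc-18*, the syntaxin partner, was at 45.4, 53.6 and 54.2 scaled CPM in wild type and 64.9, 60.9 and 63.7 in the mutant, without overlap but with a small log2 fold change of 0.31 (limma adjusted p = 0.244). *unc-10*, the RIM scaffold of the active zone, was at 11.5, 4.56 and 4.46 in wild type and 12.9, 8.43 and 5.81 in the mutant. In both groups library 1 was the highest for *unc-10*, and its log2 fold change was 0.41 (SE 0.37). *unc-33*, an axonal protein of the CRMP family that organizes microtubules, was at 73, 40.7 and 44.4 in wild type and 52, 43.5 and 41.7 in the mutant. Its log2 fold change was -0.16 (SE 0.25), and it was 0.17 with library size alone, 0.10 with TPM and 0.09 without the replicate-1 libraries.

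Of the 4 channel and gap junction genes, *unc-9* was called. *unc-9* and *unc-7* encode innexins, the gap junction proteins of invertebrates, which couple motor circuit neurons, and *unc-9* also acts in body wall muscle. *unc-9* was at 4.91, 5.78 and 6.4 scaled CPM in wild type and 12.2, 11.1 and 9.65 in the mutant, and it rose by 0.84 (SE 0.24, limma adjusted p = 0.0366). *unc-7* was at 5.15, 2.89 and 3.65 in wild type and 10.7, 5.96 and 5.62 in the mutant, also without overlap. Its log2 fold change was 0.76 (SE 0.30, limma adjusted p = 0.0765). The calcium channel genes overlapped between the groups. *egl-19*, the L-type channel of neurons and muscle, was at 44.9, 17 and 19.8 scaled CPM in wild type and 63.5, 32.3 and 28.0 in the mutant (log2 fold change 0.62, SE 0.42). *unc-2*, the presynaptic channel, was at 51.3, 12.2 and 15.1 in wild type and 46.5, 27.2 and 22.3 in the mutant (log2 fold change 0.50, SE 0.56). For *unc-2* and *egl-19* the library of replicate 1 stood far above the others in both strains.

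Transmitter identity genes were present at low levels and none was called, while each of the 6 tested ones had a positive log2 fold change. For acetylcholine, the vesicular transporter gene *unc-17* was at 6.55, 2.81 and 3.94 scaled CPM in wild type and 6.47, 5.78 and 5.62 in the mutant (log2 fold change 0.41, limma adjusted p = 0.277). The choline acetyltransferase gene *cha-1* was at 4.45, 3.65 and 2.90 in wild type and 9.14, 6.69 and 4.22 in the mutant (log2 fold change 0.68, limma adjusted p = 0.0984). Both overlapped between the groups. *unc-17* and *cha-1* share 66 bases of exon at the start of their common locus (3.43% and 3.18% of their exon bases), and reads there cannot be told apart. For GABA, the glutamic acid decarboxylase gene *unc-25* was at 13.1, 14.5 and 16.3 scaled CPM in wild type and 23.9, 26.3 and 20.4 in the mutant. *unc-25* did not overlap and had a limma adjusted p of 0.0541 (log2 fold change 0.65, SE 0.23), and it was called by edgeR (adjusted p = 0.0466) and DESeq2 (adjusted p = 0.0408). *unc-47*, the vesicular GABA transporter, had 3, 9 and 9 reads in wild type and 10, 17 and 8 in the mutant and was not tested with the others. Without the filter its log2 fold change was 0.28 (SE 0.22, limma adjusted p = 0.433).

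For glutamate, the vesicular transporter gene *eat-4* was at 3.04, 2.05 and 3.12 scaled CPM in wild type and 4.64, 5.12 and 3.93 in the mutant, without overlap (log2 fold change 0.58, limma adjusted p = 0.104). *eat-4* shares 79 and 40 bases of exon with 2 genes on the other strand, *ZK512.2* and *ZK512.7*, each of which had at least 204 reads in every library against 13 to 85 for *eat-4*. For the monoamines, the vesicular transporter gene *cat-1* was at 2.34, 1.14 and 2.23 scaled CPM in wild type and 3.09, 2.59 and 2.34 in the mutant, with wild-type library 1 almost level with mutant library 3 (log2 fold change 0.36, limma adjusted p = 0.296). *cat-2*, the tyrosine hydroxylase of dopamine neurons, had 7, 10 and 12 reads in wild type and 9, 25 and 18 in the mutant (log2 fold change 0.26, limma adjusted p = 0.415). *tph-1*, the tryptophan hydroxylase of serotonin neurons, had 1, 3 and 10 reads in wild type and 5, 19 and 7 in the mutant. Without the filter its log2 fold change was 0.40 (SE 0.22, limma adjusted p = 0.261). It shares 43 bases of exon with *ZK1290.10* on the other strand, which had 3, 23 and 11 reads in wild type and 18, 36 and 11 in the mutant. *cat-2*, *tph-1* and *unc-47* had at most 25 reads in any library.

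Per unit of gene length, in the deposited TPM, the order of the 31 genes in wild type was led by *snb-1* at 184 ± 25 TPM (SD, n = 3). *sbt-1* (50.9 ± 6.02) and *egl-21* (47.6 ± 2.34) followed, ahead of *unc-11* (41.7 ± 4.71) and *egl-3* (33.6 ± 9.23). Of the transmitter genes *unc-25* was the highest, in place 12 of 31 at 9.72 ± 0.447 TPM, followed by *unc-17* (2.76 ± 1.35), *cha-1* (2.11 ± 0.574), *eat-4* (1.48 ± 0.332), *cat-1* (1.18 ± 0.427), *cat-2* (0.735 ± 0.361), *unc-47* (0.485 ± 0.0423) and, last of the 31, *tph-1* (0.248 ± 0.168). Of the 30 pairs of neighbours in this order, 24 had overlapping ranges over the wild-type libraries. The 6 breaks fell after *snb-1*, *egl-21*, *egl-3*, *snt-4*, *cpx-1* and *unc-47*. In the mutant, *sbt-1* was at 106 ± 7.86, *egl-21* at 93.6 ± 6.11 and *egl-3* at 69.5 ± 12.5 TPM, and *snb-1* at 216 ± 11.5. TPM are not scaled between libraries, and over all genes their median log2 fold change was 0.31.

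Other genes of the same pathways, 155 tested outside the 31, had 13 called higher (8.39%) and 4 called lower (2.58%), with a median log2 fold change of 0.39. The share called higher was near the 8.84% of all tested genes, and the share called lower was under their 13.4%. In dense core vesicle biogenesis and peptide processing, 3 of 19 (15.8%) were called higher and 0 lower. The 3 were *pghm-1* (0.90, SE 0.23, limma adjusted p = 0.0337), *pgal-1* (0.76, SE 0.21, limma adjusted p = 0.0351) and *nep-1* (0.85, SE 0.27, limma adjusted p = 0.0454). *pghm-1* and *pgal-1* encode the monooxygenase and the lyase that amidate peptides after *egl-3* and *egl-21* have acted, and *nep-1* a neprilysin that degrades peptides. *pghm-1* was at 19.2, 19.5 and 24.8 scaled CPM in wild type and 48.1, 37.0 and 36.3 in the mutant, and *pgal-1* at 33.2, 38.7 and 43.7 against 64.2, 71.7 and 60.6. Genes for the convertase, its chaperone, the carboxypeptidase and both amidating enzymes were thus each called higher, but 16 of the 19 listed genes were not called. The log2 fold change was above 0 for 11 of the 19, against 53.1% of all tested genes, with a median of 0.39. In 7 every mutant library lay above every wild-type library, against 22.6% of all tested genes. In 1 of the 19 every mutant library lay below, against 26%. The summed level of the list overlapped between the groups, at 909 to 1006 scaled CPM in wild type and 951 to 1038 in the mutant.

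In transmitter synthesis, transport and clearance, 8 of 32 (25%) were called higher, against 8.84% of all tested genes, and 0 lower, against 13.4%. The log2 fold change was above 0 for 24 of the 32, against 53.1% of all tested genes, with a median of 0.59. Every mutant library lay above every wild-type library in 17, against 22.6% of all tested genes. In 4 every mutant library lay below, against 26%. *vglu-3*, of the vesicular glutamate transporter family, rose by 1.36 (SE 0.25, limma adjusted p = 0.0201), from 9.13, 5.78 and 6.4 scaled CPM in wild type to 18.1, 20.6 and 19.6 in the mutant. *snf-11*, the plasma membrane GABA transporter, rose by 1.25 and *snf-3*, a betaine transporter, by 0.86 (limma adjusted p = 0.0337 and 0.0341). The others were *cho-1*, *glt-1*, *ace-2*, *ace-3* and *mod-5*, which rose by 0.78 to 0.89 and take up choline, glutamate and serotonin or break down acetylcholine.

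For the next 4 lists, all tested genes had 8.84% called higher, 13.4% called lower and 53.1% with a positive log2 fold change. An unadjusted p under 0.05 was found in 44.8% of them. In the vesicle cycle and active zone list 1 of 46 was called higher (2.17%) and 2 lower (4.35%), with 30 positive log2 fold changes and a median of 0.14. *tom-1*, the tomosyn that inhibits release, rose by 0.74, and *snpn-1* (snapin) and *itsn-1* (intersectin, an endocytic scaffold) fell, with log2 fold changes of -1.23 and -0.80 (limma adjusted p = 0.0394, 0.0289 and 0.0433). Of 18 calcium and potassium channel genes *shl-1*, a potassium channel, was called higher, by 1.01 (limma adjusted p = 0.0372), and 17 had positive log2 fold changes. Of 20 innexins outside the members described above, 0 were called higher and 11 had positive log2 fold changes. *inx-14* and *inx-22*, which are known from the gonad, were called lower, with log2 fold changes of -1.07 and -1.19 (limma adjusted p = 0.0346 for both). limma called 0 of 20 G protein pathway genes of release, 4 had an unadjusted p under 0.05, and edgeR and DESeq2 each called 0; *gpb-1*, the most abundant, stood at -0.12.

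Of 12 further pan-neuronal genes *snet-1* (0.95) and *ttbk-3* (0.82) were called higher and *maco-1*, a membrane protein of neurons, lower (-0.68). These shares were 16.7% higher and 8.33% lower, against 8.84% and 13.4% of all tested genes. The median log2 fold change of the 12 pan-neuronal genes was 0.27. The summed level of the pan-neuronal list was 382 to 389 scaled CPM in wild type and 322 to 365 in the mutant, the other way round from its median. Among genes of ciliated neurons *che-3*, the dynein heavy chain of cilia, rose by 1.17 (SE 0.30, limma adjusted p = 0.0341), from 3.12 to 5.62 scaled CPM in wild type to 7.4 to 14.8 in the mutant. The other 3 called genes of that list, *che-11* and *bbs-1* among them, were under 1 scaled CPM in every wild-type library and passed the filter through the mutant libraries alone, so no count is drawn from the list. *che-11* had 0, 7 and 7 reads in wild type and 16, 34 and 17 in the mutant, and *bbs-1* had 0, 3 and 6 against 10, 17 and 10. Of 25 transcription factors that specify neuron types, 12 passed the filter on low values. limma called 0 of the 12, and edgeR and DESeq2 each called 0. An unadjusted p under 0.05 was found in 4, against 44.8% of all tested genes. All 12 had positive log2 fold changes, against 53.1% of all tested genes, with a median of 0.37.

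Markers of other tissues were compared in the same way, where 8.84% of all tested genes were called higher and 13.4% lower. The 28 tested oocyte and eggshell genes had 18 called lower (median -1.41), and their summed level was 13465 to 20351 scaled CPM in wild type and 4172 to 12057 in the mutant. Of 34 germline and meiosis genes 21 were called lower (median -0.86), and their sum was 4625 to 5823 in wild type and 2101 to 3843 in the mutant. Of all tested genes edgeR called 10% higher and 9.49% lower, and DESeq2 11.8% and 15.4%. Counted in either direction, these tools called 2 and 24 of the oocyte and eggshell genes and 17 and 23 of the germline and meiosis genes. In both lists mutant library 3 was the nearest to wild type, as it was for the synaptic genes. With the listed oocyte, germline and sperm genes removed before scaling, 13642 genes were tested instead of 13756. The same 6 synaptic genes were called and the median of the 29 was 0.62. Only the listed genes were removed, and the part of other germline genes was not tested.

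Epidermis markers had a median of 0.95, above that of the synaptic genes, with 2 of 23 called higher and 2 lower (8.7% each). All tested genes had 8.84% called higher and 13.4% lower. edgeR and DESeq2 called 3 and 11 of the epidermis markers, counted in either direction. Of all tested genes edgeR called 10% higher and 9.49% lower, and DESeq2 11.8% and 15.4%. The sums of the epidermis markers were 4130 to 5592 scaled CPM in wild type and 3193 to 6030 in the mutant. Sperm markers had 11 of 68 called higher (16.2%) and 1 lower (1.47%). Of the 11, 1 was under 1 scaled CPM in every wild-type library and passed the filter through the mutant libraries alone, which leaves 10. The sperm markers had a median of 0.43, with sums of 2568 to 3741 in wild type and 3579 to 4569 in the mutant. limma called 0 of 26 body wall muscle markers, 0 had an unadjusted p under 0.05, and edgeR and DESeq2 each called 0 (median 0.24, sums of 12635 to 27975 and 15993 to 25519). Of 21 intestine markers 1 was called higher (4.76%, median 0.08, sums of 6368 to 7673 and 6674 to 7242). Of 16 pharynx markers 1 was called higher (6.25%, median 0.31, sums of 385 to 1271 and 554 to 1372). Both shares were under that of all tested genes. Glia and coelomocyte markers had 2 of 15 called higher and 2 lower (13.3% each, median 0.36, sums of 377 to 429 and 372 to 463). The log2 fold change was above 0 for 21 of 23 epidermis, 67 of 68 sperm, 25 of 26 body wall muscle and 15 of 16 pharynx markers. It was above 0 for 14 of 21 intestine and 11 of 15 glia and coelomocyte markers. None of the 28 oocyte and eggshell and 34 germline and meiosis genes had a log2 fold change above 0. Over all tested genes the share above 0 was 53.1%. No list held a gene with 0 reads in all 6 libraries. The part of these tissue markers in the result for the synaptic genes was not tested.

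**Figure D4:**
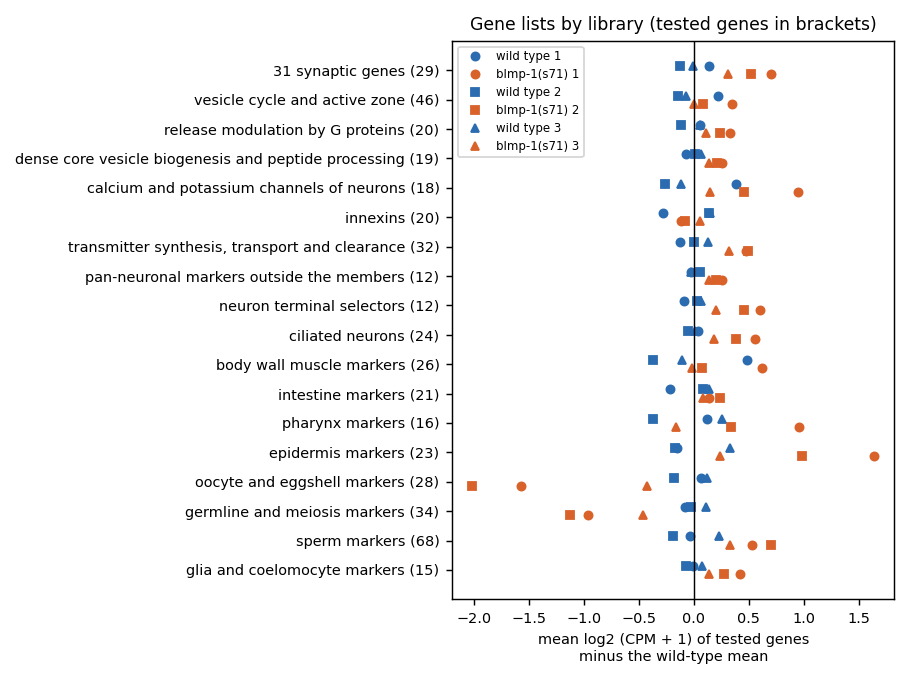
Mean log2(CPM + 1) of the tested genes of each list in each library, relative to the wild-type mean of that list (number of tested genes in brackets). The synaptic genes lie at 0.70, 0.52 and 0.31 in mutant libraries 1, 2 and 3, and the oocyte and eggshell markers at -1.57, -2.02 and -0.43.

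The synaptic genes also varied with the replicate number and with their length. In 12 of the 29 tested genes replicate 1 was the highest library in both strains: *unc-13*, *unc-10*, *egl-3*, *unc-31*, *ida-1*, *unc-33*, *unc-2*, *egl-19*, *unc-7*, *unc-17*, *cha-1* and *cat-1*. These 12 had annotated exon lengths of 1922 to 7784 bases (median 3644) and the other 17 of 791 to 2773 bases (median 1716). Over the 29 genes the excess of wild-type library 1 over wild-type libraries 2 and 3 went with log2 exon length with a Pearson r of 0.78 and a Spearman rho of 0.70, and in the mutant with 0.66 and 0.55. Over 13256 tested protein-coding genes the same values were 0.40 and 0.37 in wild type and 0.26 and 0.24 in the mutant. These are descriptions, since the genes share the same 6 libraries. The log2 fold change between the strains had a Pearson r of 0.02 and a Spearman rho of -0.03 with exon length over the 29 genes. Over the 13256 genes these values were -0.07 and -0.08.

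**Figure D5:**
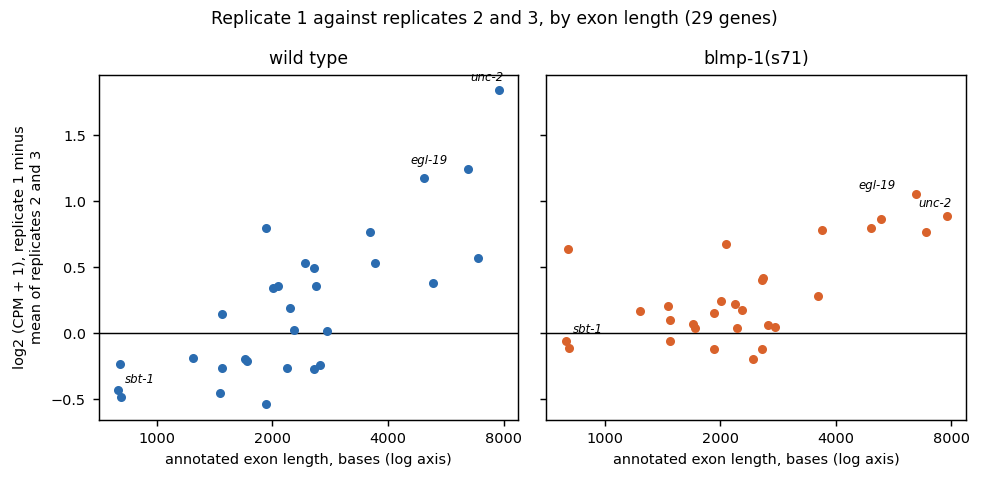
Difference in log2(CPM + 1) between replicate 1 and the mean of replicates 2 and 3 (vertical axis) against annotated exon length in bases (log axis) for the 29 tested genes, in wild type (left) and *blmp-1(s71)* (right). Long genes such as *unc-2* and *egl-19* lie highest in both panels, and *sbt-1*, with 791 exon bases, lies below 0 in both.

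Set against each other alone, mutant library 1 was above wild-type library 1 in 24 of the 29 genes, with a median difference of 0.73 on the log2 scale. Without the replicate-1 libraries, 28 of the 31 genes were tested, 26 had a positive log2 fold change and the median was 0.65. In that fit of 2 libraries a group limma called 0 of them, and 15 had an unadjusted p under 0.05, against 32.0% of all genes in that fit.

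The direction of the calls over all genes depended on the scaling, so the changes are relative to the TMM scale. Of the calls over all genes 39.7% were higher here, 60.8% after upper-quartile scaling, 94.2% by library size alone and 90.3% in TPM as deposited. All tested genes had a median log2 fold change of 0.07, 0.18, 0.35 and 0.31 under these settings, and the synaptic genes had 0.62, 0.75, 0.94 and 0.81. In TPM 11 and by library size alone 14 of the synaptic genes were called higher, against 13.9% and 16.6% of all tested genes. edgeR and DESeq2 called 6 and 8 of the 29 higher, against 10% and 11.8% of all tested genes, and each shared 5 with limma: *snt-4*, *egl-3*, *egl-21*, *sbt-1* and *unc-9*.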

How the data were processed

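RNA of whole young adults was sequenced in 6 libraries, grouped by sample title. The authors deposited 1 CPM and 1 TPM value per gene and library, per the file headers. The submitters' processing notes list HISAT2 2.1.0, Trimmomatic 0.36, DESeq2 1.22.0 and featureCounts 1.6.3, with no role or order. Not given in the sources used here were the build, annotation, strand use and handling of multi-mapping reads, so reads of overlapping genes cannot be assigned with certainty. Of 47157 IDs, 46781 are in the WBcel235 annotation, and 11 symbols turned into dates were restored from their IDs.

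Deposited CPM were divided by TMM factors of 0.813 to 1.21, the 13756 genes that reached a CPM of 1 in 3 or more libraries were kept, and log2(CPM + 1) was tested with limma 3.58.1 in R 4.3.3 (group as the only term, trend and robust moderation, Benjamini-Hochberg over all genes at 0.05). In each library 100% of nonzero CPM were whole multiples of 1 read within 0.01 reads. As alternatives, these recovered reads were tested with edgeR 4.0.16 and with DESeq2 1.42.0. 3 reads corresponded to 0.197 to 0.571 CPM, and such floors cover counting error only. All 31 genes are named. The pathway, pan-neuronal and ciliated lists name up to 3 called genes by adjusted p, or the most abundant one where none was called. The remaining called transmitter genes were named afterwards. No gene is named from the lists of neuron-type transcription factors and of tissue markers. *grl-14*, *ZK512.2*, *ZK512.7*, *ZK1290.10*, *damt-1* and *set-25* were named afterwards as overlapping genes. The genes and lists were chosen with earlier results of these data known. Of the list genes, 9 were not found by name. Alternatives were other scalings, filters, pseudocounts, tools and units, a replicate block and left-out libraries.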

Additional observations from a re-analysis of the deposited data

How the results depend on the processing

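Over all genes, 3061 calls became 115 with no filter on low values, 124 without both replicate-1 libraries, 5877 with the replicate block, and 34 to 4746 with each library left out in turn. Synaptic genes called higher, 6 in the report, were 14 with library size alone, 10 with upper-quartile scaling, 11 with TPM, 0 with no filter, 0 without both replicate-1 libraries and 0 to 12 with each library left out. The replicate block gave 16 higher and 1 lower, where 17.2% of all tested genes were called higher and 25.5% lower. Synaptic genes called lower were 0 to 1 with each library left out. The 1 came without mutant library 3, where 21.8% of all tested genes were called lower. Without the filter 22878 genes entered the adjustment, and 17 of the 31 had an unadjusted p under 0.05, against 29.6% of those genes. Other pathway genes called higher, 13 in the report, were 32 with library size alone, 27 with upper-quartile scaling, 25 with TPM, 34 with the replicate block, 1 with no filter, 1 without both replicate-1 libraries and 0 to 25 with each library left out. Those called lower, 4 in the report, were 2 with edgeR, 1 with library size alone, 1 with TPM, 12 with the replicate block, 0 with no filter, 0 without both replicate-1 libraries and 0 to 11 with each library left out. The median log2 fold change of the synaptic genes was 0.94 with library size alone and 0.44 to 0.81 in the other settings. The cause of these moves was not tested.

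The replicate numbers do not pair the libraries by any label, and the deviations of same-numbered libraries from their group means correlated at 0.35, 0.44 and -0.09, with wild-type library 3 closest to mutant library 2. Of 492 values of single genes under the alternatives, 398 kept direction and call, 45 lost a call, 40 gained one and 9 changed sign. The 9 were of *snb-1* (0.30 with library size alone, 0.11 with upper-quartile scaling, 0.24 with TPM, and -0.094 to 0.073 with a library left out, with values of 0.032 and 0.073 without wild-type library 2 or 3) and of *unc-33* (0.17 with library size alone, 0.098 with TPM, 0.086 without both replicate-1 libraries, and -0.32 to 0.19 with a library left out). A pseudocount of 0.5 gave 5 synaptic genes called higher and of 2 gave 7. Depth limits *cat-2*, *tph-1* and *unc-47*, with at most 25 reads in a library.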
